A study of Homo sapiens with 15 samples.

Results

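The Wnt ligands, receptors and secreted inhibitors of human cells are described here through 40 genes, chosen by symbol from the 33158 genes of an RNA sequencing table. They are 19 ligands (WNT1 to WNT16), 10 Frizzled receptors, the 4 coreceptors LRP5, LRP6, ROR1 and ROR2, the 6 secreted inhibitors SFRP1, SFRP2, SFRP4, DKK1, DKK2 and DKK3, and AXIN2, a feedback target of the pathway. All 40 were found in the table.

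The study compared cancer stem cells (CSCs) with the remaining cells of triple negative breast cancer lines, that is, tumour lines without estrogen receptor, progesterone receptor or HER2 amplification. CSCs here are CD44+/CD24-/low cells, separated by flow cytometry after staining for CD44 and CD24, and non-CSCs were sorted from the same lines. There were 15 libraries, 3 in each of 5 groups: SUM149PT CSC, SUM149PT non-CSC, HCC1937 CSC, HCC1937 non-CSC and SUM159PT. SUM159PT was not sorted, and its labels call it CSC because most of its cells carry that surface profile. All are established cell lines, and the labels shorten 2 of the names to SUM149 and SUM159. Nothing states whether the 3 libraries of a group came from separate cultures, so every p measures the spread between these libraries, which may be technical.

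Wnt proteins are lipid modified ligands that bind Frizzled receptors on the cell surface. With LRP5 or LRP6 they stabilise beta-catenin, which then activates TCF/LEF target genes such as AXIN2, whereas with ROR1 or ROR2 they act without beta-catenin on cell polarity and movement. SFRP proteins bind the ligands, DKK1 blocks LRP5 and LRP6, and in the mammary gland the pathway is known for its part in maintaining stem cells.

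Levels are FPKM, fragments of RNA scaled to transcript length and to the mapped fragments of the library, which allows levels of different genes to be compared. Read depth is unknown, because the files hold no counts. The FPKM of all genes summed to between 291276 and 366532 in the 12 sorted libraries and to between 634746 and 652082 in the 3 SUM159PT libraries. SUM159PT had 8534 to 8670 genes above 1 FPKM and each sorted library 11249 to 11997, so the SUM159PT libraries stand apart. In each library, 2 to 5 of 80 ribosomal protein genes were at 0, so a member at 0 is described only as listed at 0.

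The sorting antigen CD24 had a mean of 7.74 FPKM in SUM149PT CSCs and 139 in their non-CSCs, 23.3 in HCC1937 CSCs and 150.0 in their non-CSCs, and 0.729 in SUM159PT. CD44 RNA differed less, at 84.4 and 64.5 FPKM in SUM149PT, 106 and 97.8 in HCC1937 and 28.8 in SUM159PT. Of the receptor genes that define triple negative status, PGR was listed at 0 in all libraries but 1, and ESR1 did not pass 1.86 FPKM. ERBB2 group means ran from 3.55 to 19.1 FPKM. ERBB2 was above the upper quartile of detected genes in SUM159PT, at 17.4 to 20.0 against 8.06 to 8.44, and in HCC1937 non-CSCs, at 16.4 to 18.3 against 11.8 to 12.5.

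Of the 40 members, 28 reached a group mean of 1 FPKM in at least 1 group and 18 reached 5 FPKM, among them 7 ligands. The 12 that stayed under 1 FPKM in every group were WNT1, WNT2, WNT3, WNT3A, WNT8A, WNT8B, WNT9B, WNT16, FZD10, SFRP2, SFRP4 and DKK2. WNT2 and WNT9B were listed at 0 in all 15 libraries.

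The summed ligand level was 126 ± 3.93 FPKM (mean ± SD, n = 3) in SUM149PT non-CSCs and 90.5 ± 2.51 in their CSCs. It was 65.7 ± 2.30 in HCC1937 non-CSCs, 46.5 ± 2.82 in their CSCs and 9.32 ± 0.697 in SUM159PT. The ligands with the highest levels were not the same in every group. WNT7B gave 53.9% and WNT5A 35.0% of it in SUM149PT CSCs, while WNT5A gave 48.7% and WNT6 22.4% in SUM149PT non-CSCs. In HCC1937 CSCs WNT7B gave 28.1% and WNT5B 24.1%. In HCC1937 non-CSCs WNT7B and WNT7A gave 28.7% and 27.5%, and their order was not the same in the 3 libraries.

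Frizzled levels summed to 44.0 ± 0.176 FPKM in SUM149PT CSCs and 41.0 ± 1.05 in their non-CSCs, to 62.4 ± 3.86 and 37.4 ± 1.68 in HCC1937 CSCs and non-CSCs, and to 13.4 ± 0.0863 in SUM159PT. The secreted inhibitors were dominated by a single gene in each group. DKK3 gave 92.4% of the inhibitor sum in SUM149PT CSCs and 99.0% in SUM159PT, SFRP1 gave 79.7% in SUM149PT non-CSCs, and DKK1 gave 71.7% and 84.0% in HCC1937 CSCs and non-CSCs.

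**Figure D1:**
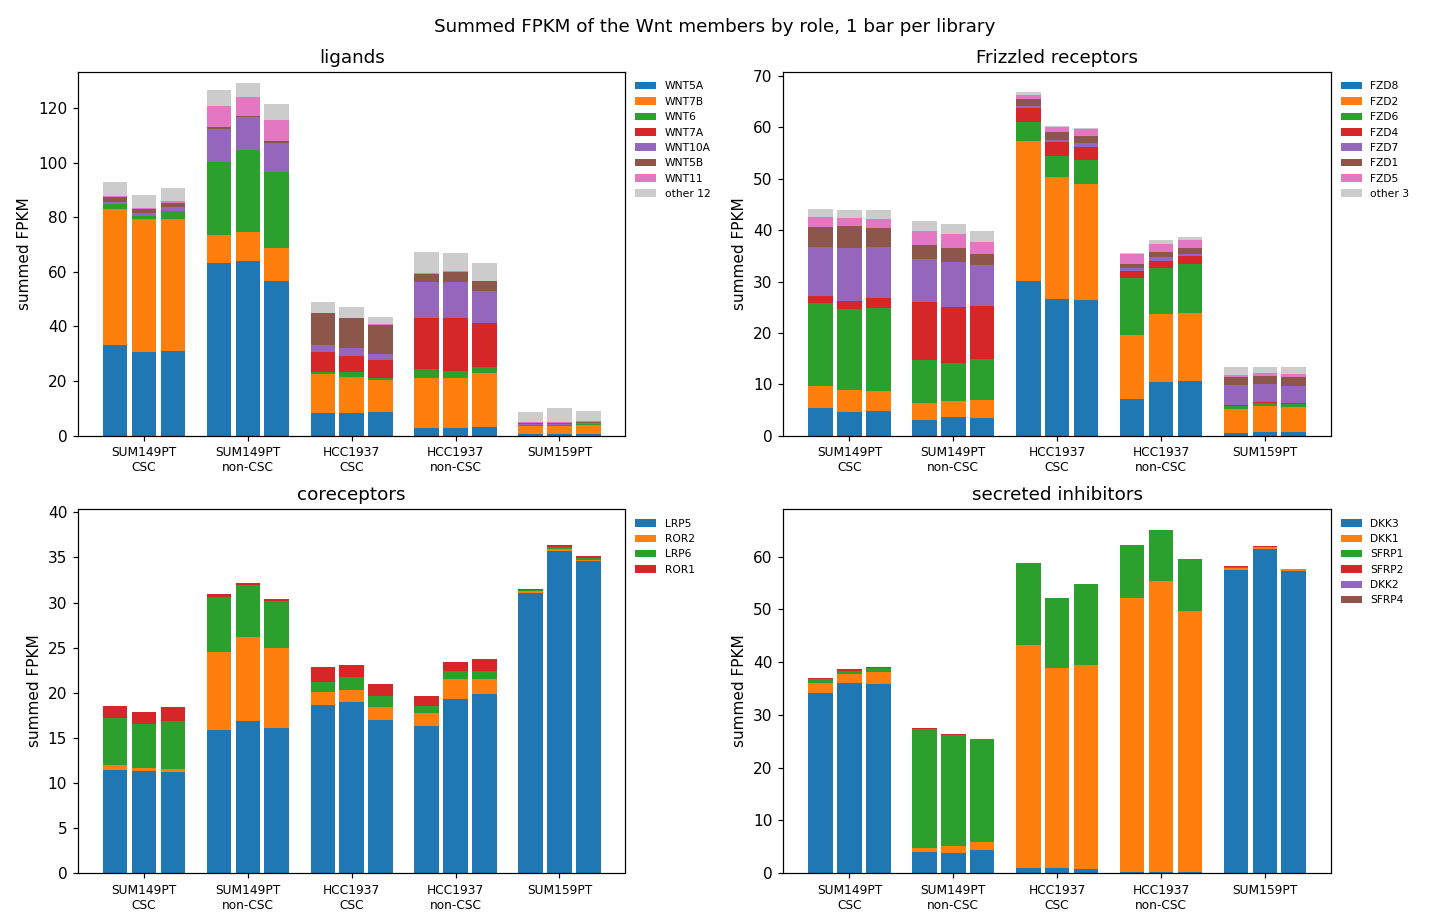
Summed FPKM of the ligands, Frizzled receptors, coreceptors and secreted inhibitors, 1 bar per library in the 5 groups, with colours for the member genes. The inhibitor panel shows DKK3 as the main gene in SUM149PT CSCs and SUM159PT, SFRP1 in SUM149PT non-CSCs and DKK1 in both HCC1937 fractions.

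The first question was how the Wnt genes differ between CSCs and non-CSCs of SUM149PT. In SUM149PT CSCs the ligands WNT6, WNT10A and WNT11, the receptor FZD4, the coreceptor ROR2 and the inhibitor SFRP1 were lower than in non-CSCs. WNT7B, ROR1, DKK3 and AXIN2 were higher. A gene counts as called when limma's adjusted p, over all genes tested, is at most 0.05 and the difference in log2(FPKM + 0.1) is at least 1 in size, a scale that understates the fold of genes near 0.1 FPKM. Testing needed 0.1 FPKM on average over the libraries compared, which 28 members reached and 12, WNT7A among them, did not. Of the 28, 13 were called (46.4%), against 34.9% of all 16037 genes tested. Among them 6 were higher (all genes, 12.8%) and 7 lower (all genes, 22.1%), and the median log2 difference of the members was -0.10, against -0.11 over all genes.

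WNT6, a ligand expressed in epithelia, had 1.83, 1.29 and 2.80 FPKM in the 3 CSC libraries and 26.6, 29.9 and 27.7 in the 3 non-CSC libraries, a log2 difference of -3.83 ± 0.27 SE, adjusted p 5.97e-05. The fractions were far apart, with every CSC library under 3 FPKM. WNT10A, which lies beside WNT6 in the genome, had 1.04, 1.05 and 1.28 FPKM in CSCs and 12.4, 12.1 and 10.6 in non-CSCs (-3.27 ± 0.11 SE, adjusted p 4.52e-06). WNT11, a ligand known from cell movement in the embryo, had 0.466, 0.659 and 0.669 FPKM in CSCs and 7.58, 6.84 and 7.87 in non-CSCs (-3.44 ± 0.14 SE, adjusted p 9.01e-06). For both genes the highest CSC library lay below the lowest non-CSC library. WNT2B, a beta-catenin activating ligand, fell from 1.37, 1.10 and 1.30 FPKM in non-CSCs to 0.233, 0.311 and 0.326 in CSCs (-1.80 ± 0.13 SE, adjusted p 6.71e-05). In bulk RNA, fewer cells making a transcript and less of it per cell cannot be told apart.

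WNT6 and WNT10A are neighbours on chromosome 2, on the same strand, with 6.13 kb between them in GRCh38. The pairs WNT1 and WNT10B, WNT3 and WNT9B, and WNT3A and WNT9A also lie within 100 kb of each other. None of these genes was called in SUM149PT, where WNT1, WNT3, WNT3A and WNT9B were not tested, and WNT9A alone was called in HCC1937. Because WNT6 and WNT10A moved together, the promoter of WNT6 is shown as RefSeq gives it (GRCh38.p14), 250 bases up to the transcription start. It was searched on both strands for CTTTGA, the core of TCF/LEF sites, and for CACCTG, a sequence bound by ZEB and Snail factors.
WNT6, chr2:218859555-218859804, plus strand: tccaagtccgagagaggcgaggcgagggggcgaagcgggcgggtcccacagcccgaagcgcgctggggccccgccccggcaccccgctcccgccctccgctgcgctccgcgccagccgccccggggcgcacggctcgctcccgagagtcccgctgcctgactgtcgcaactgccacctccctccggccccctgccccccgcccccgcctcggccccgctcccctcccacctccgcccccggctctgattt
Neither motif is in this window, so no letters are in capitals. RefSeq promoter windows were found for 27 of the 40 members, 30 windows in all. CTTTGA was in 1 of the 30 and in 11.2% of 35116 windows of all genes, and CACCTG in 6 of the 30 and in 17.5% of all.

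WNT7B and WNT5B were the ligands called higher in SUM149PT CSCs. WNT7B, a ligand that signals through beta-catenin in many epithelia, had 49.4, 48.4 and 48.6 FPKM in CSCs and 10.2, 10.9 and 12.3 in non-CSCs (2.13 ± 0.08 SE, adjusted p 7.32e-06), with no overlap. WNT5B, which mostly signals without beta-catenin, was low in both, at 1.58, 1.20 and 1.72 and 0.601, 0.339 and 0.540 FPKM (1.44 ± 0.22 SE, adjusted p 0.00155). WNT5A, its close relative, had 33.4, 30.8 and 30.9 FPKM in CSCs and 63.2, 63.8 and 56.6 in non-CSCs. Its groups did not overlap, but its log2 difference of -0.95 (adjusted p 9.6e-05) was under the size limit. WNT4 had 1.85, 1.98 and 1.81 FPKM in CSCs and 1.04, 0.754 and 1.07 in non-CSCs. It was higher in CSCs without overlap, but under the size limit as well (0.92, adjusted p 0.00135).

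Among the 9 Frizzled receptors tested, 1 rose and 1 fell. FZD4, which also serves the ligand Norrin, had 1.48, 1.40 and 1.85 FPKM in CSCs and 11.3, 10.9 and 10.2 in non-CSCs (-2.71 ± 0.11 SE, adjusted p 9.73e-06). FZD6 had 16.1, 15.8 and 16.1 and 8.32, 7.53 and 7.99 FPKM, a difference that sat at the limit (1.001, adjusted p 3.39e-05). Its call ended without CSC replicate 1 (0.998), CSC replicate 3 (0.99) or non-CSC replicate 2 (0.96), and with the GC trend removed (0.86), an alternative chosen after seeing the data. FZD2, FZD7 and FZD8 had log2 differences of 0.35, 0.24 and 0.53 and were not called.

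The coreceptors ROR1 and ROR2, receptor tyrosine kinases that bind WNT5A, moved in opposite directions. ROR2 had 0.524, 0.318 and 0.346 FPKM in CSCs and 8.64, 9.30 and 8.89 in non-CSCs (-4.21 ± 0.16 SE, adjusted p 7.38e-06), and ROR1 had 1.30, 1.40 and 1.56 and 0.252, 0.213 and 0.164 (2.30 ± 0.13 SE, adjusted p 2.59e-05). Neither pair of groups overlapped. LRP5 and LRP6, which carry the beta-catenin signal, were not called, at -0.51 (adjusted p 0.000296) and -0.16 (adjusted p 0.0951).

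Among the inhibitors SFRP1 fell and DKK3 rose. SFRP1, which binds Wnt ligands outside the cell, had 0.850, 0.692 and 0.778 FPKM in CSCs and 22.6, 21.0 and 19.5 in non-CSCs (-4.60 ± 0.10 SE, adjusted p 1.82e-06). DKK3, a divergent member of the Dickkopf family, had 34.2, 36.0 and 35.9 FPKM in CSCs and 4.04, 3.76 and 4.44 in non-CSCs (3.09 ± 0.08 SE, adjusted p 2.64e-06). In each case the fractions were separated by several times the spread within them. DKK1 had 1.76, 1.73 and 2.19 and 0.743, 1.38 and 1.41 FPKM and was not called (0.68, adjusted p 0.0499).

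AXIN2, which the pathway induces and which in turn helps to degrade beta-catenin, had 1.02, 1.24 and 1.09 FPKM in CSCs and 0.201, 0.154 and 0.175 in non-CSCs (2.14 ± 0.10 SE, adjusted p 1.42e-05). Its level was low in both fractions, near 1 FPKM where it was high. With a pseudocount of 1 FPKM in place of 0.1, 8 members were called (28.6%), against 19.4% of all genes, and AXIN2, ROR1, WNT2B, WNT5B and FZD6 were not. The strand of the libraries is not stated, so part of the signal of WNT2B, FZD4 and WNT11 may belong to genes of the opposite strand that overlap 21.2%, 18.9% and 8.50% of their exon bases. AXIN2 shares 25.2% of its exon bases with a gene of the same strand, which no strand information would separate. Overlaps of SFRP1, FZD3 and FZD6 with other genes are not reported here. Of all genes called in SUM149PT, 36.5% were higher in CSCs, and 51.2% after quantile normalization. Among the members, 9 were then higher and 7 lower, and 8 and 7 after rescaling to TPM. A two-sided permutation test of 3 libraries against 3 could not give a p below 0.10, so single genes rest on limma.

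The same question was asked of HCC1937. There, CSCs had less WNT4, WNT7A, WNT9A and WNT10A and more WNT5A, WNT5B, FZD8 and DKK3 than non-CSCs. WNT6 and FZD6 were lower as well. Of the 28 members tested, 10 were called (35.7%), against 8.71% of 15582 genes. Among them 4 were higher (all genes, 2.71%) and 6 lower (all genes, 6.0%), with a median log2 difference of -0.04 for the members and -0.03 for all genes. Of all genes called, 31.1% were higher in CSCs, and 42.2% after rescaling to TPM, where 7 members were higher and 6 lower.

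WNT10A had 2.64, 2.94 and 2.02 FPKM in HCC1937 CSCs and 13.2, 13.4 and 11.7 in non-CSCs (-2.30 ± 0.15 SE, adjusted p 0.000462), with no overlap. WNT7A, a ligand of epithelia and the female reproductive tract, had 7.06, 5.84 and 6.70 FPKM in CSCs and 18.5, 19.5 and 16.2 in non-CSCs (-1.45 ± 0.11 SE, adjusted p 0.000683). WNT4, which acts in mammary branching, had 0.0318, 0.197 and 0.152 and 1.46, 1.02 and 0.929 FPKM (-2.51 ± 0.34 SE, adjusted p 0.00451). All 3 CSC libraries of each of these ligands lay below all 3 non-CSC libraries. WNT9A, a ligand of joint and liver development, had 1.56, 1.85 and 0.894 and 4.26, 3.80 and 3.47 FPKM (-1.41 ± 0.26 SE, adjusted p 0.0131), and its call ended without non-CSC replicate 1 (-1.34, adjusted p 0.053).

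The promoter window of WNT7A is shown because the gene was high in HCC1937 and listed at 0 or close to it elsewhere. The 200 bases run from 250 to 51 bases before the start, and the capitals mark CACCTG, 214 bases before the start on the given strand.
WNT7A, chr3:13880122-13880321, minus strand: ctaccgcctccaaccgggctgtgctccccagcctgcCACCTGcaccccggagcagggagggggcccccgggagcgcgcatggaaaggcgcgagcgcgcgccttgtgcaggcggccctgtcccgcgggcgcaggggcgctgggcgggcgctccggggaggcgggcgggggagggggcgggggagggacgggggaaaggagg
A match of letters is a description and not a binding site.

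WNT6 was lower in HCC1937 CSCs, with 0.873, 1.54 and 0.737 FPKM against 3.24, 2.33 and 2.17 (-1.26 ± 0.29 SE, adjusted p 0.0272). The call ended without CSC replicate 1 (adjusted p 0.0773) or 3 (0.0694), and without non-CSC replicate 1 (0.0858), 2 (0.0693) or 3 (0.055). It also ended with replicate number as a block (0.0607). In these fits the log2 difference lay between -1.07 and -1.37.

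WNT5A and WNT5B both rose in HCC1937 CSCs. WNT5A had 8.28, 8.48 and 8.68 FPKM in CSCs and 2.92, 2.90 and 3.24 in non-CSCs (1.46 ± 0.07 SE, adjusted p 0.000212). WNT5B had 11.6, 11.1 and 10.8 and 3.04, 3.70 and 3.61 (1.67 ± 0.10 SE, adjusted p 0.000304). Neither gene's groups overlapped. WNT7B was at 13.1 ± 1.37 FPKM in CSCs (SD, n = 3) and at 18.9 ± 0.875 in non-CSCs and was not called (-0.53, adjusted p 0.0129).

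Of the 8 Frizzled receptors tested in HCC1937, FZD8 rose and FZD6 fell. FZD8, a receptor for several Wnt ligands, had 30.1, 26.6 and 26.4 FPKM in CSCs and 7.08, 10.4 and 10.7 in non-CSCs (1.57 ± 0.18 SE, adjusted p 0.00223). FZD6 had 3.72, 4.14 and 4.65 and 11.1, 9.0 and 9.45 FPKM (-1.22 ± 0.12 SE, adjusted p 0.00154). The groups of both receptors were apart. FZD2 had 24.5 ± 2.45 FPKM in CSCs and 13.03 ± 0.455 in non-CSCs and stayed under the size limit (0.90, adjusted p 0.00169), as did FZD4 (0.89, adjusted p 0.000926). FZD7 had a log2 difference of -0.18.

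None of the 4 coreceptors was called by limma in HCC1937, where 19 of the 28 members had an unadjusted p of at most 0.05 (67.9%), against 37.8% of all genes. LRP5, LRP6, ROR1 and ROR2 had log2 differences of -0.02, 0.49, 0.30 and -0.31. DKK3 was low in this line but higher in CSCs, with 1.01, 0.951 and 0.773 FPKM against 0.131, 0.105 and 0.123 (2.20 ± 0.11 SE, adjusted p 0.00023). DKK1 and SFRP1, the abundant inhibitors, were under the size limit. DKK1 had 39.6 ± 2.25 FPKM in CSCs and 52.3 ± 2.84 in non-CSCs (-0.40, adjusted p 0.0158), and SFRP1 had 14.7 ± 1.23 and 9.86 ± 0.168 (0.57, adjusted p 0.0057). AXIN2 had 0.733, 0.578 and 0.423 FPKM in CSCs and 0.282, 0.316 and 0.233 in non-CSCs, a log2 difference of 0.83 (adjusted p 0.0269). WNT11 did not reach 0.3 FPKM in any HCC1937 library. A pseudocount of 1 FPKM ended the calls of DKK3 (0.77), WNT4 (-0.92) and WNT6 (-0.81).

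**Figure D2:**
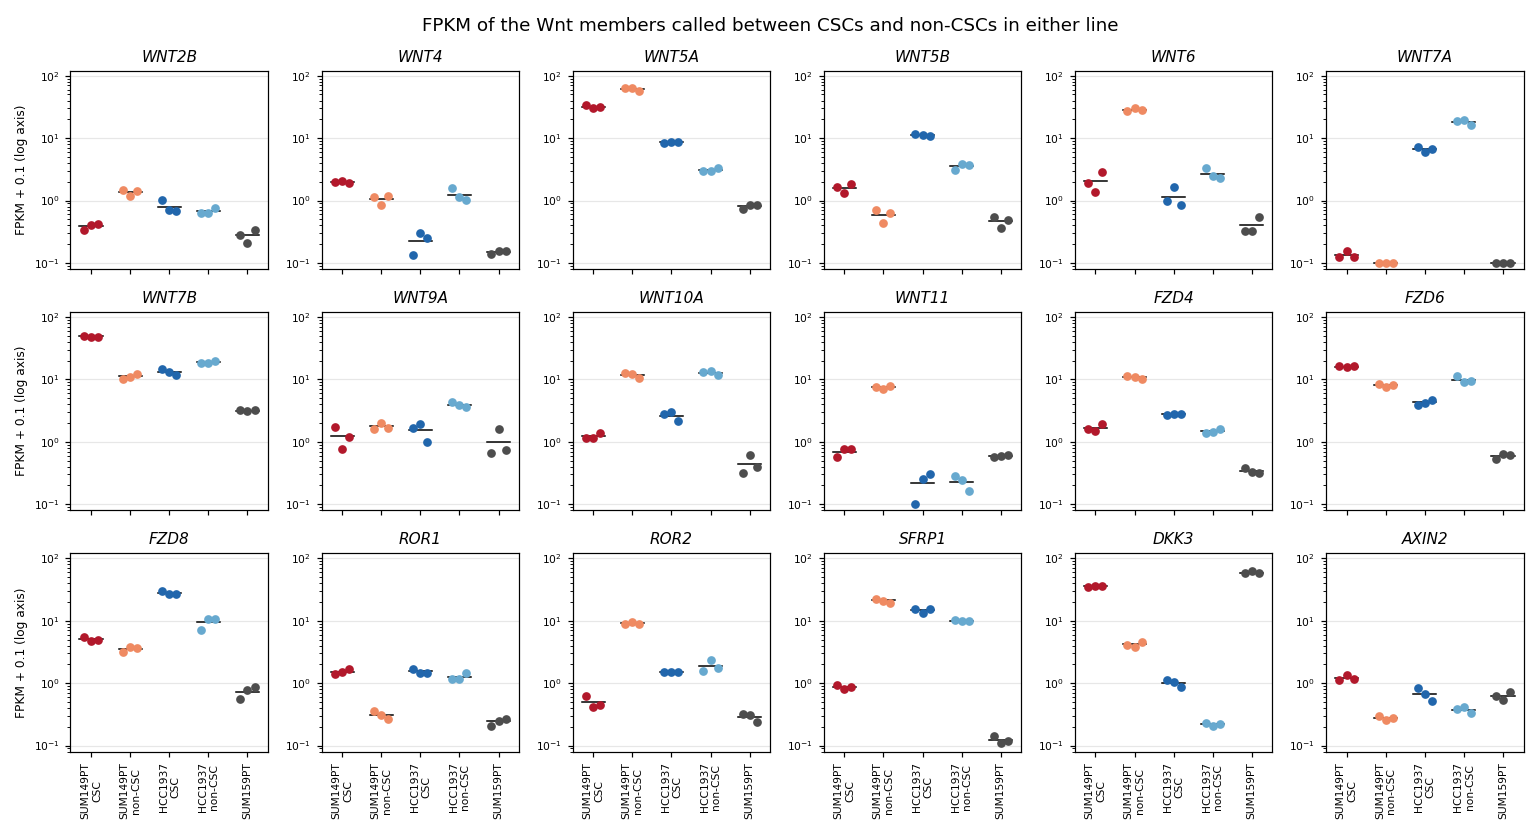
FPKM + 0.1 on a log axis for the 18 members called between CSCs and non-CSCs in either line, 1 point per library and a line at the mean of each group. WNT10A lies lower and DKK3 higher in the CSCs of both lines, while SFRP1 is at 0.692 to 0.850 FPKM in SUM149PT CSCs and 19.5 to 22.6 in SUM149PT non-CSCs.

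Across both sorted lines, 18 members were called in at least 1 of them. The direction was shared for 4 of them, WNT6 and WNT10A lower in CSCs and WNT5B and DKK3 higher. For WNT6 this rests on the HCC1937 call, which ended with the replicate block and without single libraries. FZD6 was called in opposite directions, 8 members were called in SUM149PT alone and 5 in HCC1937 alone, of which WNT7A was not tested in SUM149PT. Of the 26 members tested in both lines, the 4 with a shared direction are 15.4%, against 5.24% of 14423 genes tested in both. With a pseudocount of 1 FPKM, WNT5B was not called in SUM149PT, nor DKK3 and WNT6 in HCC1937. Of the 4, WNT10A alone was then called in both lines. Over all those genes, 0.797% were called in opposite directions, 25.7% in SUM149PT alone and 2.07% in HCC1937 alone. A call in a single line does not by itself show a difference between lines, which was tested as the CSC effect in SUM149PT minus that in HCC1937.

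**Figure D3:**
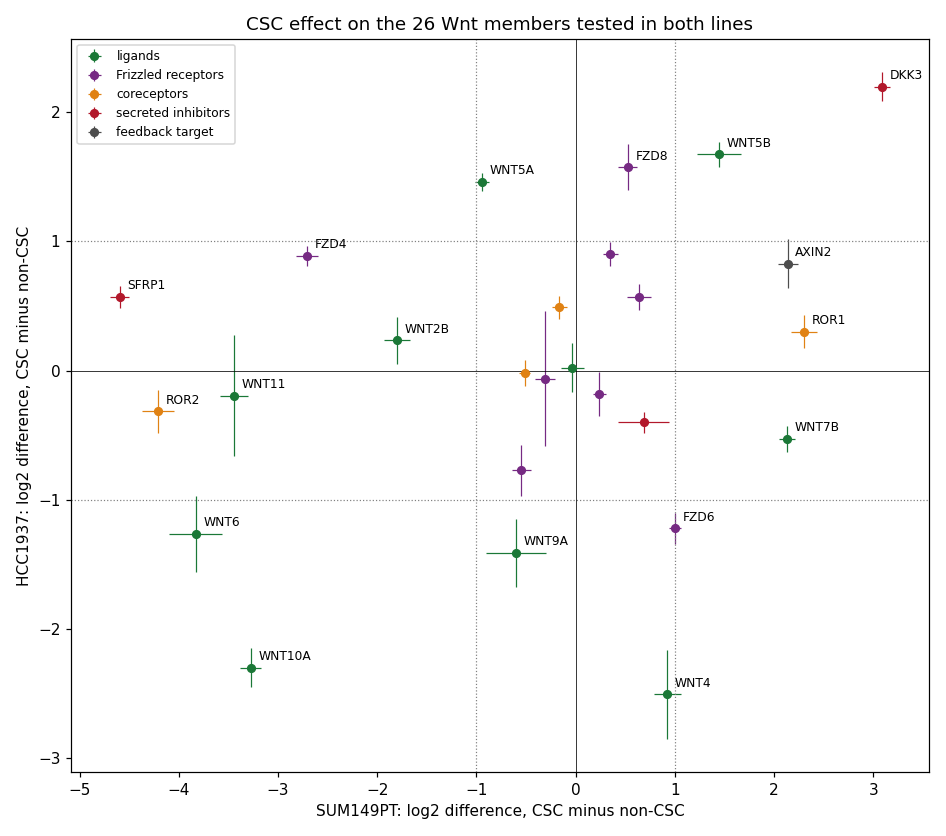
Log2 difference between CSCs and non-CSCs in SUM149PT (horizontal axis) and HCC1937 (vertical axis) for the 26 members tested in both, with SE bars, dotted lines at the size limit and colours for roles. DKK3 and WNT5B lie at the upper right and WNT10A and WNT6 at the lower left, while SFRP1 is at -4.60 in SUM149PT and 0.57 in HCC1937.

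The CSC effect itself differed between the lines for many members. SFRP1, ROR2, FZD4, WNT11, WNT6, WNT5A and WNT2B had a more negative effect in SUM149PT, and WNT4, WNT7B, FZD6 and ROR1 a more positive one. Of 28 members tested, 15 were called (53.6%), against 30.4% of 16451 genes. In 7 the effect was higher in SUM149PT (all genes, 12.2%) and in 8 lower (all genes, 18.2%), and the median was -0.14 for the members and -0.08 for all genes. Of all genes called, 40.2% had the higher effect in SUM149PT, and 50.7% after quantile normalization, where 8 members had the higher and 7 the lower effect. WNT7A is among the 15, but it was at most 0.0571 FPKM in SUM149PT. Its value of 1.88 combines its fall in HCC1937 (-1.45) with SUM149PT levels under the pseudocount. Over the alternatives it ran from 1.39 to 3.57. This comparison uses the libraries of both comparisons before it.

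For SFRP1 the effects differed by -5.17 ± 0.13 SE, adjusted p 4.87e-09, for ROR2 by -3.90 ± 0.24 SE, adjusted p 6.12e-07 and for FZD4 by -3.59 ± 0.14 SE, adjusted p 2.74e-08. These were genes that fell in SUM149PT CSCs and were not called in HCC1937. For WNT5A the difference was -2.41 ± 0.10 SE, adjusted p 4.29e-08, with its RNA lower in CSCs of SUM149PT and higher in those of HCC1937. For WNT4 it was 3.43 ± 0.39 SE, adjusted p 4.02e-05 and for WNT7B 2.66 ± 0.13 SE, adjusted p 1.07e-07. WNT4 was at 0.0318 to 0.197 FPKM in HCC1937 CSCs, near the pseudocount, and its value ran from 1.48 to 4.32 over the alternatives. For AXIN2, higher in SUM149PT CSCs, the difference was 1.31 ± 0.23 SE, adjusted p 0.000618. WNT5B (-0.23, adjusted p 0.459), DKK3 (0.89, adjusted p 0.000308) and WNT10A (-0.97, adjusted p 0.00148) were not called as different between lines.

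Some of these calls rest on single libraries. DKK1 (1.084) was not called without SUM149PT CSC replicate 3 (0.98) or SUM149PT non-CSC replicate 1 (0.81). FZD8 (-1.05) was not called without SUM149PT CSC replicate 2 (-0.995), HCC1937 CSC replicate 1 (-0.99) or HCC1937 non-CSC replicate 1 (-0.86). WNT11, at 0 in HCC1937 CSC replicate 1, lost its call with a pseudocount of 0.01 FPKM (-2.74, adjusted p 0.118). With a pseudocount of 1 FPKM, AXIN2 (0.55), DKK1 (0.82), ROR1 (0.82) and WNT2B (-0.91) were under the size limit, as FZD8 was after quantile normalization (-0.89) and with the GC trend removed (-0.91).

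The lines were also compared with each other, with both fractions weighted equally. HCC1937 had more WNT7A, DKK1, WNT5B, FZD2 and FZD8, and SUM149PT had more DKK3, FZD7, WNT11, FZD3, WNT5A and LRP6. Of 28 members, 17 were called (60.7%), against 40.3% of all genes. In HCC1937, 7 were higher (all genes, 22.4%) and 10 lower (all genes, 17.9%), with a median log2 difference of -0.54 for members and 0.16 for all genes. Of all genes called, 55.6% were higher in HCC1937, and 44.7% after upper quartile scaling, where 6 members were higher and 11 lower. These libraries are those of the comparisons of CSCs with non-CSCs.

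DKK1, the LRP6 blocker, had 38.0 to 42.1 FPKM in HCC1937 CSCs and 49.5 to 55.2 in non-CSCs, against at most 2.19 in any SUM149PT library (4.86 ± 0.14 SE, adjusted p 2.94e-10). Its promoter window is shown because DKK1 separates the lines and is itself known as a target of beta-catenin. The capitals mark CTTTGA, 95 bases before the start on the given strand, and TCAAAG, the same motif read on the other strand, 149 bases before the start.
DKK1, chr10:52314031-52314280, plus strand: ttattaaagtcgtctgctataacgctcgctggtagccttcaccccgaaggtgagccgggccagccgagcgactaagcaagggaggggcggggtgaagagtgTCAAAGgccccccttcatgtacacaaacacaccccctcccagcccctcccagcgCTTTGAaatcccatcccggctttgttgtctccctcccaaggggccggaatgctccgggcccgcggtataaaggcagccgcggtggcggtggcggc
The window lies in an exon of PRKG1-AS1, a noncoding gene on the opposite strand, which overlaps 9.61% of the exon bases of DKK1.

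WNT7A was at 5.84 to 7.06 FPKM in HCC1937 CSCs and 16.2 to 19.5 in non-CSCs, at most 0.0571 in SUM149PT CSCs and listed at 0 in all SUM149PT non-CSC libraries, so no fold is given. FZD7, a Frizzled receptor linked to mammary stem cells, had 9.95 ± 0.488 and 8.43 ± 0.320 FPKM in SUM149PT CSCs and non-CSCs and at most 0.797 in HCC1937 (-3.71 ± 0.09 SE, adjusted p 1.28e-10). FZD2 showed the reverse, at 2.24 ± 0.06 SE, adjusted p 1.38e-10. LRP6 was lower in HCC1937 (-2.23 ± 0.06 SE, adjusted p 1.46e-10), while LRP5 was not called (0.43, adjusted p 4.07e-05). DKK3 (-4.70 ± 0.07 SE, adjusted p 4.32e-12) and WNT5A (-3.09 ± 0.05 SE, adjusted p 6.83e-12) were lower in every HCC1937 library than in any SUM149PT library of the same fraction. SFRP1 was called higher in HCC1937 (1.503), although its highest level was in SUM149PT non-CSCs. FZD4 was called lower (-1.07), although in CSCs it was at 2.63 to 2.69 FPKM in HCC1937 and 1.40 to 1.85 in SUM149PT, and WNT4 was called lower (-1.49), although in non-CSCs its means were 1.14 and 0.954. For WNT6 (-2.13) the CSC libraries of the lines overlapped. WNT5B (2.72) and FZD8 (1.93) were higher in HCC1937, and WNT11 (-3.44), FZD3 (-3.16) and FZD1 (-1.44) lower. FZD3 did not pass 0.0638 FPKM in HCC1937, under the pseudocount. Over the alternatives its value ran from -4.79 to -1.02, and that of WNT11 from -4.48 to -1.71. WNT7B (-0.57), WNT10A (0.61), FZD6 (-0.81) and ROR2 (-0.34) were not called. For WNT7B, FZD6 and ROR2 the fractions went opposite ways. In CSCs of HCC1937 and SUM149PT, WNT7B had 13.1 and 48.8 FPKM, FZD6 4.17 and 16.0 and ROR2 1.39 and 0.396. In non-CSCs, WNT7B had 18.9 and 11.1 FPKM, FZD6 9.86 and 7.95 and ROR2 1.78 and 8.94. A pseudocount of 1 FPKM ended the calls of FZD1 (-0.98), FZD4 (-0.90), ROR1 (0.42) and WNT4 (-0.62).

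ROR1 (1.02) was not called without SUM149PT CSC replicate 1 (0.99), SUM149PT non-CSC replicate 3 (0.96), HCC1937 CSC replicate 1 (0.98) or HCC1937 non-CSC replicate 3 (0.96). Upper quartile scaling ended its call as well (0.81). Its means were 1.44 FPKM in HCC1937 CSCs and 1.42 in SUM149PT CSCs, against 1.15 and 0.210 in non-CSCs, so the difference lies in the non-CSCs.

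The last comparison set unsorted SUM159PT against the mean of the CSC fractions of SUM149PT and HCC1937. SUM159PT had little RNA of most ligands and of FZD6, FZD8, LRP6, DKK1 and SFRP1, and much DKK3 and LRP5. Of 29 members tested, 22 were called (75.9%), against 64.7% of 15788 genes. In SUM159PT, 4 were higher (all genes, 18.2%) and 18 lower (all genes, 46.5%), with a median of -1.57 for members and -0.85 for all genes. The split depended on scaling: 10 members were higher and 12 lower with quantile normalization, and 1 higher and 22 lower with TPM.

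Beside these counts, the SUM159PT libraries stand apart in FPKM sum and genes detected, and the log2 differences followed GC content across 13744 genes (Spearman rho 0.593; genes are not independent replicates). Line, sorting and library cannot be told apart here. The median over all genes became -1.81 after rescaling to TPM, -0.51 with upper quartile scaling and 0.02 with quantile normalization. Of all genes called, 28.2% were higher in SUM159PT, 10.3% with TPM and 49.99% with quantile normalization.

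DKK3 had 57.5, 61.4 and 57.3 FPKM in SUM159PT, above every sorted library (3.30 ± 0.08 SE, adjusted p 2.42e-09). LRP5 had 31.0, 35.7 and 34.6 FPKM, against 11.2 to 11.5 and 17.0 to 18.9 in the CSC fractions (1.23 ± 0.07 SE, adjusted p 2.83e-07). WNT10B, a beta-catenin activating ligand, had 2.78, 3.09 and 2.62 FPKM (1.15 ± 0.14 SE, adjusted p 7.2e-05), and FZD9 was higher by 1.31 ± 0.19 SE, adjusted p 0.000191. With the GC trend removed, an alternative chosen after seeing the data, LRP5, WNT10B and FZD9 turned to -0.20, -0.14 and -0.27, so among the 4 higher members DKK3 alone kept its direction there.

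WNT5A had 0.637, 0.733 and 0.741 FPKM in SUM159PT (-4.36 ± 0.07 SE, adjusted p 4.9e-10) and WNT7B 3.09, 2.98 and 3.16 (-3.00 ± 0.07 SE, adjusted p 2.11e-09). Both lay below every library of the CSC fractions. SFRP1 was at most 0.0413 FPKM, under the pseudocount (-4.88 ± 0.11 SE, adjusted p 1.19e-09), and DKK1 at most 0.438 (-4.16 ± 0.10 SE, adjusted p 2.22e-09). In SUM149PT and HCC1937 CSCs, SFRP1 had means of 0.774 and 14.7 FPKM and DKK1 of 1.89 and 39.6. FZD8 (-4.04), FZD6 (-3.80) and LRP6 (-3.07) were lower as well, and so were WNT5B (-3.20), FZD4 (-2.66), ROR1 (-2.66), WNT4 (-2.12), WNT10A (-2.07), WNT6 (-1.93) and ROR2 (-1.57). WNT7A was listed at 0 in all 3 libraries. FZD7 (0.49), WNT11 (0.69) and AXIN2 (-0.52) were not called. FZD7 had 3.33 to 3.85 FPKM in SUM159PT, below the 9.48 to 10.5 of SUM149PT CSCs and above the 0.492 to 0.702 of HCC1937 CSCs.

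SFRP1, FZD8, FZD6 and LRP6 kept their calls under every alternative, the limits on p and size aside, but their sizes moved. SFRP1 ran from -6.83 to -2.37, FZD8 from -5.52 to -2.70, FZD6 from -4.92 to -1.90 and LRP6 from -4.24 to -1.39. For the smaller differences the calls themselves depended on libraries or scaling. FZD2 (-1.02) lost its call without HCC1937 CSC replicate 1 (-0.98), and WNT2B (-1.03) lost it without SUM149PT CSC replicate 3 (-0.99), HCC1937 CSC replicate 1 (-0.94) or SUM159PT replicate 2 (-0.85), and with the GC trend removed (-0.19). FZD2 had 4.81 to 5.11 FPKM in SUM159PT, above the 3.88 to 4.35 of SUM149PT CSCs and below the 22.5 to 27.2 of HCC1937 CSCs. The SUM159PT libraries overlapped SUM149PT CSCs for WNT2B and HCC1937 CSCs for WNT4. After quantile normalization FZD5 and WNT2B turned from -1.19 and -1.03 to 0.44 and 0.28, and WNT10A (-0.53), WNT6 (-0.40), ROR2 (-0.19) and FZD2 (-0.18) were not called. Upper quartile scaling ended the calls of FZD2 (-0.60), FZD5 (-0.82) and WNT2B (-0.72), and TPM those of FZD9 (0.42), LRP5 (0.18) and WNT10B (0.16). With a pseudocount of 1 FPKM, 14 members were called (48.3%), against 45.5% of all genes.

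**Figure D4:**
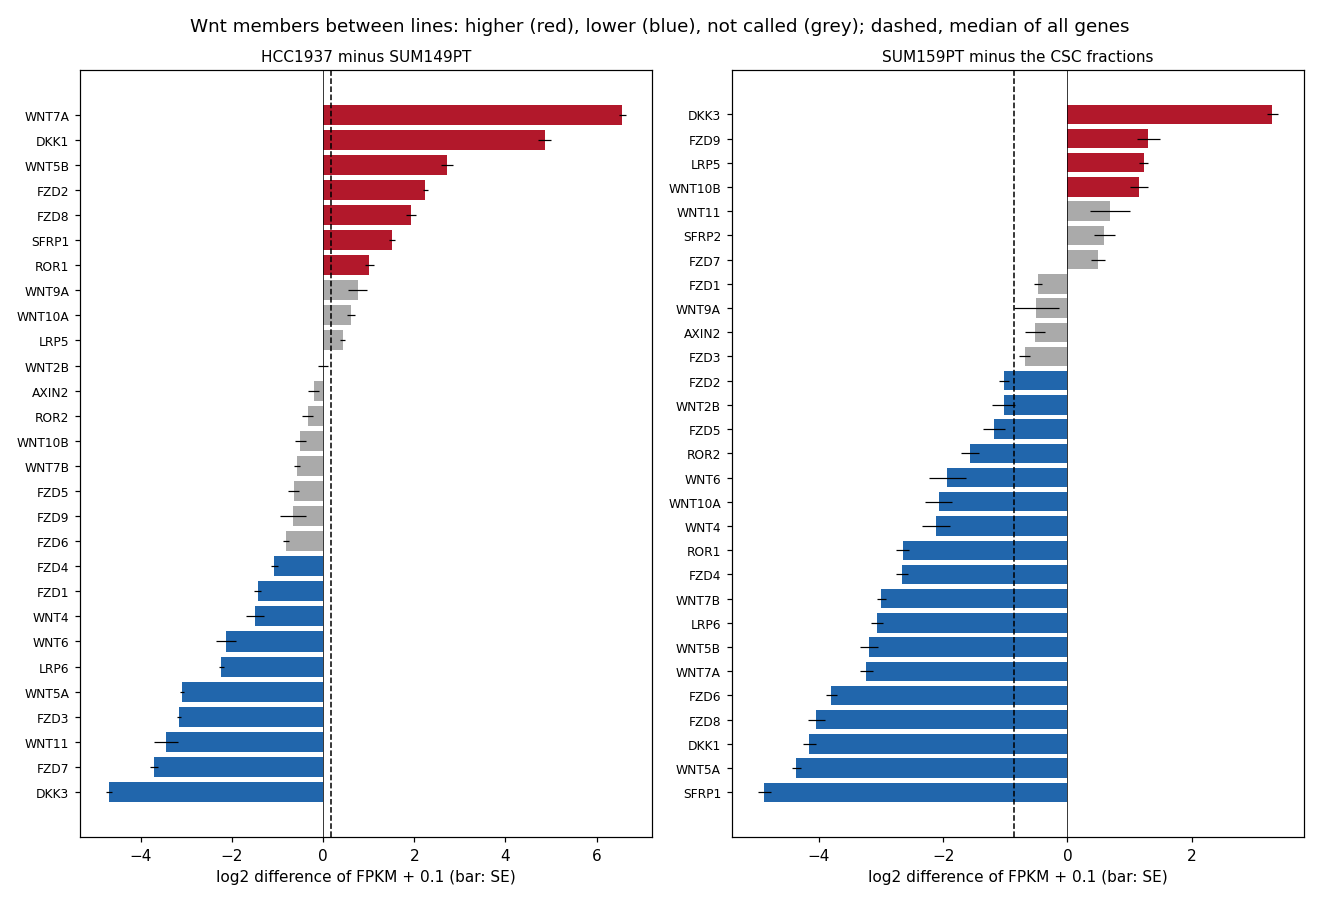
Log2 differences of the Wnt members tested, HCC1937 minus SUM149PT on the left and SUM159PT minus the CSC fractions on the right, with SE bars and a dashed line at the median of all genes. DKK3 is at -4.70 on the left and 3.30 on the right, and LRP5, WNT10B and FZD9, drawn as higher in SUM159PT, turn negative with the GC trend removed, as FZD5 and WNT2B turn positive after quantile normalization.

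A list of 69 other genes of the pathway was examined beside the members. In SUM149PT, 20 of 55 tested were called, 6 higher and 14 lower in CSCs, a share of 36.4% against 34.9% of all genes. In HCC1937, 5 of 48 were called, 1 higher and 4 lower, 10.4% against 8.71%. WLS, which carries Wnt ligands to the cell surface, had 36.8 FPKM in SUM149PT CSCs and 14.9 in non-CSCs (1.30), and NOTUM, an enzyme that inactivates the ligands, had 4.06 and 0.829 (2.17). Both were called higher in SUM149PT CSCs, while PORCN, which adds the lipid to the ligands, was not called (adjusted p 0.952). In HCC1937 WLS (-0.41), NOTUM (-0.18) and PORCN (-0.39) were not called.

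KREMEN2, a receptor for DKK1, was lower in CSCs of both lines, with 6.53 and 35.5 FPKM in SUM149PT (-2.43) and 5.49 and 15.2 in HCC1937 (-1.49). CELSR2, of the planar cell polarity list, was lower in both as well (-1.59 and -1.44), and these 2 were the pathway genes called in a shared direction. Of the R-spondin list, LGR4 (-1.41), LGR6 (-3.70) and RSPO3 (-2.79) fell in SUM149PT CSCs and RNF43, a ligase that removes Frizzled from the surface, fell in HCC1937 CSCs (-1.92). Other genes overlap up to 57.6% of the exon bases of RNF43, 22.8% of those of PRICKLE2 and 13.8% of those of KREMEN2, so part of their signal may belong elsewhere. Among 15 cytoplasmic transducers tested in SUM149PT, DVL2 alone was called (-1.67). TLE4, a corepressor of TCF/LEF, fell in SUM149PT CSCs (-1.42) and rose in HCC1937 CSCs (1.51). Of 10 planar cell polarity genes tested in SUM149PT, 1 rose, PRICKLE2 (1.44), and 2 fell, VANGL2 (-3.70) and CELSR2.

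The remaining pathway genes called in SUM149PT CSCs were the inhibitors SOST, higher (2.38), SFRP5 (-2.35) and FRZB (-1.29), the nuclear factors PYGO1 (1.72), LEF1 (-1.13) and TLE1 (-1.77), and the target genes TNFRSF19 (1.85), NKD1 (-2.40) and SP5 (-1.16). SP5 was at the limit (adjusted p 0.0473), with 0.445, 0.0819 and 0.127 FPKM in CSCs and 0.437, 0.593 and 0.578 in non-CSCs, and its groups overlapped. In HCC1937 the remaining gene was DAAM1, which acts in cell polarity (-1.18). Between HCC1937 and SUM149PT, 23 of 56 pathway genes were called, 3 higher and 20 lower in HCC1937, with 7 of 11 nuclear factors lower. That is 41.1% against 40.3% of all genes, of which 22.4% were higher and 17.9% lower. In SUM159PT, 36 of 53 were called, 13 higher and 23 lower, 67.9% against 64.7% of all genes. The CSC effect differed between lines for 21 of 56, 37.5% against 30.4% of all genes.

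Markers of epithelial and mesenchymal state moved with the sorted fractions. All 4 epithelial markers (EPCAM, CDH1, KRT8 and KRT18) were lower in CSCs of both lines. Their summed level was 79.9 to 86.4 FPKM in SUM149PT CSCs and 529.8 to 538 in non-CSCs, 418 to 503 and 1212 to 1421 in HCC1937, and 275 to 291 in SUM159PT. KRT18 was the most abundant in every library but 2 of the HCC1937 CSCs, where KRT8 was. The SUM159PT sum came from KRT8 and KRT18, since EPCAM and CDH1 had means of 0.0467 and 0.0681 FPKM there, against 2.49 and 3.32 in SUM149PT CSCs. EPCAM and CDH1 were called lower in SUM159PT than in the CSC fractions, and KRT8 and KRT18 were not called. Mesenchymal markers were higher in CSCs, 3 of 4 in SUM149PT and 4 of 4 in HCC1937. They summed, with VIM the most abundant in all libraries but 1 of the SUM149PT non-CSCs, where FN1 was, to 2338 to 2486 and 447 to 508 FPKM in SUM149PT, 923 to 1077 and 140.5 to 211 in HCC1937 and 1227 to 1257 in SUM159PT. ZEB1 and CDH2 had means of 0.204 and 2.86 FPKM in SUM159PT, against 6.82 and 21.8 in SUM149PT CSCs and 7.22 and 28.2 in HCC1937 CSCs. Both were called lower in SUM159PT, and VIM and FN1 were not called. The part of these epithelial and mesenchymal markers in the differences of the Wnt members was not tested.

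Basal markers (KRT5, KRT14, KRT17 and TP63) summed to 82.9 to 85.2 FPKM in SUM149PT CSCs, 658 to 711 in their non-CSCs, 202 to 232 and 389.8 to 443 in HCC1937 and 3.33 to 3.69 in SUM159PT. KRT17 was the most abundant in SUM149PT and in HCC1937 non-CSCs, KRT14 in HCC1937 CSCs, and KRT5 in 2 of the 3 SUM159PT libraries. In SUM149PT CSCs, KRT5 (-4.62) and KRT17 (-3.02) fell, KRT14 was not called (-0.59), and TP63 rose, with means of 11.5 FPKM in CSCs and 2.37 in non-CSCs (2.24, adjusted p 2.49e-05). In HCC1937 CSCs, KRT5 (-1.33) and KRT17 (-1.22) fell and KRT14 and TP63 were not called. Of the fibroblast markers, COL1A1 (2.14) and PDGFRB (3.10) were higher and DCN (-3.10) lower in SUM149PT CSCs, COL1A2 (1.58) was higher in HCC1937 CSCs, and LUM stayed under 0.5 FPKM. The list, with COL1A1 on top, summed to 224 to 230.0 and 65.1 to 68.3 FPKM in SUM149PT, 11.7 to 12.7 and 6.08 to 7.81 in HCC1937 and 40.4 to 45.4 in SUM159PT. The T cell marker CD3E was listed at 0 in every library, PTPRC did not pass 0.0986 FPKM, and CD68, the most abundant leukocyte marker, brought that list to 16.0 to 16.4 and 47.0 to 49.9 FPKM in SUM149PT, 40.0 to 44.3 and 38.9 to 41.4 in HCC1937 and 30.5 to 34.0 in SUM159PT. CD68 was lower in SUM149PT CSCs (-1.57) and not called in HCC1937 (0.08). The endothelial markers PECAM1, CDH5 and VWF were under 1 FPKM in all 15 libraries. They were lower in SUM149PT CSCs (-1.20, -2.70 and -2.48), and in HCC1937 CSCs CDH5 was lower (-1.28), PECAM1 was not called (0.23) and VWF was not tested. The part of the basal, fibroblast, leukocyte and endothelial markers in the differences of the Wnt members was not tested.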

How the data were processed

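RNA taken with oligo(dT) beads was sequenced for 15 libraries, and the authors deposited FPKM for 33158 gene symbols. The submitters' processing notes name Bowtie2 and GRCh38, and the quantifier is not stated. No counts are given, so depth is unknown and precision rests on 3 libraries per group.

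Groups were taken from the labels. Each comparison was fitted with limma 3.58.1 in R 4.3.3 (lmFit and eBayes, two-sided) on log2(FPKM + 0.1), on genes averaging 0.1 FPKM or more across its libraries, with Benjamini-Hochberg adjustment over all genes tested. The fit was tested on simulated data. Statistics are printed for members called in a comparison or with a group mean of at least 5 FPKM. The members and the gene lists were chosen with earlier results of these data known. Alternatives were the pseudocount, the minimum level, TPM, upper quartile and quantile scaling, eBayes options, a fit over all 15 libraries, a replicate block, the limits on p and size, and leaving out each library. Removal of the GC trend was added after seeing the data. Positions are from GENCODE and promoters from RefSeq. Python 3.11.15 with pandas 2.3.3, numpy 2.4.6 and matplotlib 3.10.9 made the summaries and figures.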

Additional observations from a re-analysis of the deposited data

Results flagged for a closer look

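For 15 members the effect of the CSC fraction differed between the 2 sorted lines, by limma's test of the difference itself, which is 53.6% of the 28 tested, against 30.4% of all genes. The values are the log2 difference between CSCs and non-CSCs in SUM149PT minus that in HCC1937. It was negative for 8 members: SFRP1 at -5.17, ROR2 at -3.90, FZD4 at -3.59, WNT11 at -3.25, WNT6 at -2.57, WNT5A at -2.41, WNT2B at -2.03 and FZD8 at -1.05. It was positive for 7: WNT4 at 3.43, WNT7B at 2.66, FZD6 at 2.22, ROR1 at 2.00, WNT7A at 1.88, AXIN2 at 1.31 and DKK1 at 1.084. WNT7A was close to 0 FPKM in SUM149PT, where it was not tested. Its value combines the fall in HCC1937 (-1.45) with SUM149PT levels under the pseudocount, and ran from 1.39 to 3.57. The value of WNT4 ran from 1.48 to 4.32, with HCC1937 CSC levels near the pseudocount. Of the 15, 9 stayed called under every alternative in which they were tested, the limits on p and size aside. AXIN2, ROR1, WNT2B and DKK1 were not called with a pseudocount of 1 FPKM, nor WNT11 with 0.01, and DKK1 and FZD8 were not called without certain libraries, nor FZD8 after quantile normalization or with the GC trend removed, an alternative chosen after seeing the data.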

How the results depend on the processing

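Of 77 called differences of single members, 48 kept direction and call under every alternative in which they were tested, 24 lost the call in at least 1, and 5 turned their direction, all in the SUM159PT comparison. These were FZD5 (0.44) and WNT2B (0.28) with quantile normalization, and FZD9 (-0.27), LRP5 (-0.20) and WNT10B (-0.14) with the GC trend removed. The limits on p and size were applied to counts only. Where a count moved, the cause was not tested, apart from the settings that change the limit or the genes tested.

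With a pseudocount of 1, 8 members were called in SUM149PT and 14 in the SUM159PT comparison, and 3109 genes were called in SUM149PT, 626 in HCC1937, 2872 for the difference between the CSC effects, 3788 between the lines and 7190 in the SUM159PT comparison. A minimum of 1 FPKM left 3623 genes called in SUM149PT and 872 in HCC1937. With the adjusted p limit at 0.0001, SUM149PT had 3292 called genes, the difference between the effects 2922, and HCC1937 0 members and 0 genes by limma, while there 19 of 28 members and 5886 of 15582 genes passed 0.05 unadjusted. Without a limit on size, 25 members and 11993 genes were called in SUM149PT, 19 and 3985 in HCC1937, 10053 genes for the difference between the effects and 13592 between the lines.

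Leaving out each library in turn gave 12 to 15 members and 5473 to 5593 genes in SUM149PT, 8 to 10 and 1170.0 to 1359 in HCC1937, 14 to 16 and 4863 to 5043 for the difference between the effects, 16 to 18 and 6583 to 6682 between the lines, and 20 to 22 and 10134 to 10217 for SUM159PT. With replicate number as a block, WNT6 lost its call in HCC1937 (adjusted p 0.0607). The median over all genes moved by over 0.1 with quantile normalization in SUM149PT (-0.11 to 0.10) and for the difference between the effects (-0.08 to 0.06), with TPM in HCC1937 (-0.03 to 0.09), and with upper quartile, TPM and quantile scaling between the lines (0.16 to -0.06, 0.06 and 0.06), where it was 0.03 without a minimum level. In the SUM159PT comparison it moved from -0.85 with every scaling, and to -0.37 with a pseudocount of 1, -0.95 with 0.01 and -0.34 without a minimum. Depth limits the members under 1 FPKM, whose counting error is unknown.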
